A study of Mus musculus with 6 samples.

Results

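The genes described here are 10 members of the Bcl2 family, which sets whether a blood cell survives or dies by apoptosis: the anti-apoptotic genes Bcl2, Bcl2l1 and Mcl1, the effector genes Bax and Bak1, and the BH3-only genes Bcl2l11, Bid, Bad, Bbc3 and Pmaip1. They were taken by name through their RefSeq accessions, and each of the 10 matched 1 entry among the 23146 entries of the deposited tables. RNA came from EML cells, a murine haematopoietic progenitor line of bone marrow origin kept alive by stem cell factor, in 6 libraries: KAI1 knockdown (n = 2), its knockdown control (n = 2), KAI1 overexpression (n = 1) and its overexpression control (n = 1). KAI1 is a tetraspanin membrane protein encoded by Cd82, and the question was what its loss and gain do to mRNA levels. The titles mark both controls as WT, and the labels give strain BDF1 and the cell type basophil for all 6 libraries, grown with 20% serum and 200 ng/ml stem cell factor, and no group carries a further allele or agent in the labels. How KAI1 was knocked down or overexpressed, whether a group is 1 clone, and whether replicates came from separate cultures could not be read from the labels. The p-values therefore measure only the spread between these libraries, which may be technical.

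Proteins of this family act at the outer membrane of the mitochondrion. Bax and Bak1 proteins open pores there, and cytochrome c that leaks out starts the caspases. Bcl2, Bcl-xL (from Bcl2l1) and Mcl1 proteins hold them in check, while BH3-only proteins such as Bim (Bcl2l11), Bid, Bad, Puma (Bbc3) and Noxa (Pmaip1) bind the guardians or activate the effectors. Stem cell factor, acting through its receptor Kit, is known to keep progenitors and mast cells alive in part by restraining Bim, and Noxa is known to bind Mcl1 with preference.

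The values are the authors' RPKM, reads scaled to transcript length and library size, so levels of different genes can be set side by side. Depth was not stated and was estimated from the steps between low values at 9570000 to 25000000 reads a library. Cd82, the targeted gene, stood at 7.65 and 6.91 RPKM in the KAI1 knockdown, against 43.9 and 13.8 RPKM in its controls, and 15.2 RPKM in the KAI1 overexpression, against 11.9 RPKM in its control. Knockdown control replicate 1 stood apart from the other 5 libraries in its lineage markers. Summed RPKM of 14 mast cell and basophil markers was 8621 and 7554 in the knockdown, 77970 in control replicate 1 and 16340 in control replicate 2, and 25440 in the overexpression, against 6456 in its control. Fcer1a, the alpha chain of the IgE receptor that defines mast cells and basophils, was listed at 0 in knockdown replicate 1 and control replicate 2, stood at 0.289 RPKM in knockdown replicate 2 and at 24.2 RPKM in control replicate 1, and at 7.41 RPKM in the overexpression, against 0.261 RPKM in its control. The 8 matched of 10 erythroid markers summed to 2361 and 2698 RPKM in the knockdown, 163.9 RPKM in control replicate 1 and 2835 RPKM in control replicate 2, and to 681.6 RPKM in the overexpression, against 2211 RPKM in its control. The globin gene Hbb-bt alone had 57.5 RPKM in control replicate 1 and 2304 RPKM in control replicate 2. Of the 8, 2 went the other way between these controls: Gata1, at 87.25 and 53.5 RPKM, and Epor, at 15.6 and 14.8 RPKM. The lymphoid and macrophage markers, 4 of each, summed to at most 9.25 and 5.67 RPKM, both in control replicate 1, with Cd3e and Cd14 listed at 0 in every library. In such bulk RNA, fewer cells of a type and less RNA per cell cannot be told apart.

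All 10 genes had RNA in every library, with no value below 2.16 RPKM, and they fell into a high and a low tier. Bax, Bid, Bad, Bak1, Mcl1 and Bcl2l1 averaged 51.3, 49.4, 48.3, 46.2, 39.8 and 31.6 RPKM over the 6 libraries. Pmaip1, Bbc3, Bcl2l11 and Bcl2 averaged 7.08, 6.92, 4.92 and 3.83 RPKM. Bcl2l1, the lowest of the upper tier, exceeded Pmaip1, the highest of the lower tier, in 6 of 6 libraries, and their ranges did not overlap. Within a tier the ranges of neighbouring genes overlapped and the order held in 3 or 4 of the 6 libraries, so neighbours did not differ beyond their spread. Bcl2 itself, the gene that named the family, was thus among the lowest, below Bcl2l1 and Mcl1 in each library. Among 10112 entries averaging 1 RPKM or more over the 6 libraries, 82.9% had a lower mean than Bax and 22.4% a lower mean than Bcl2. The fewest reads stood behind Bbc3 in control replicate 2, about 38 by the estimated depth, while Bid and Mcl1 had at least about 782 and 1427 reads in every library.

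**Figure D1:**
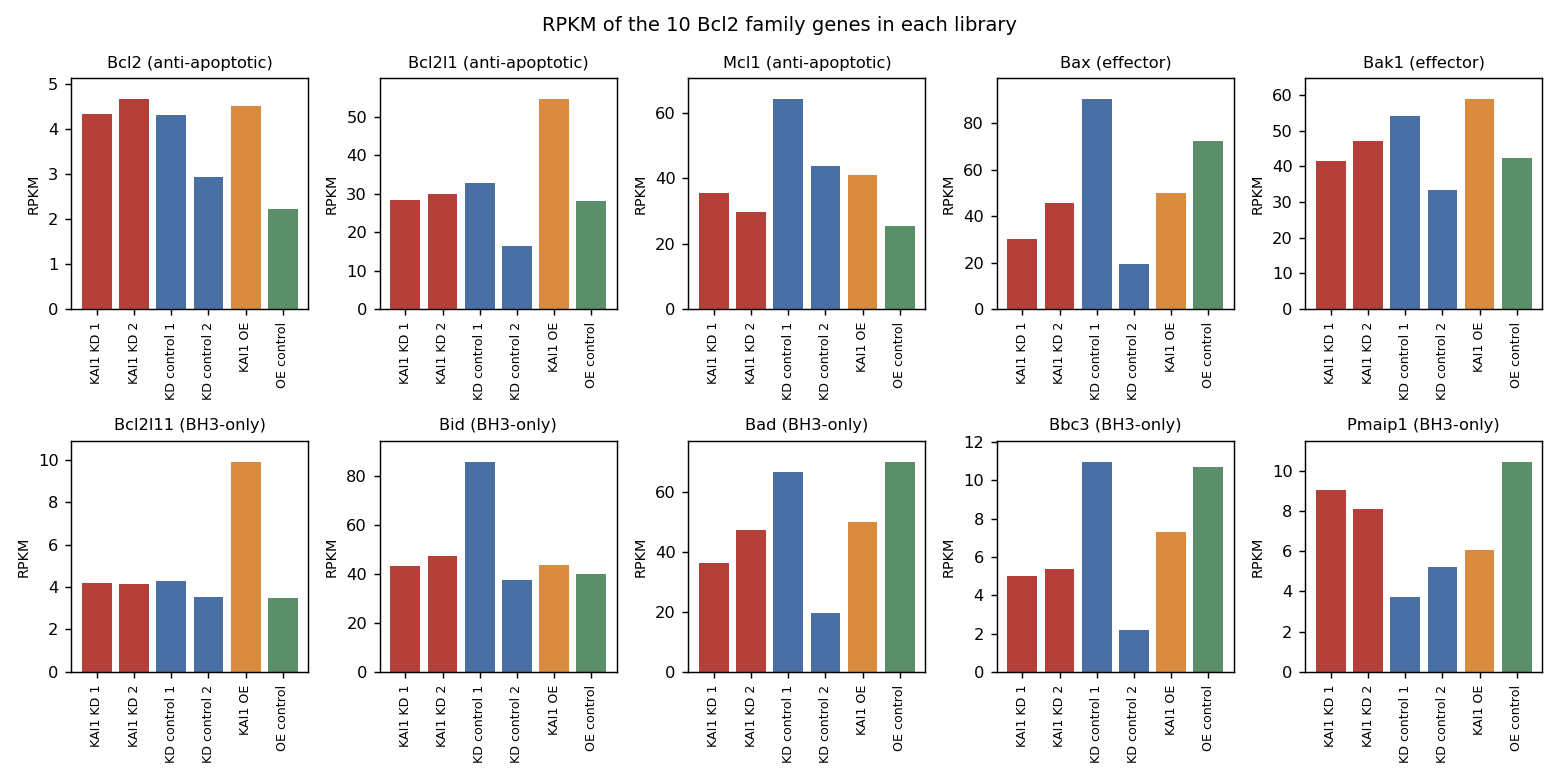
RPKM (y axis, linear, from 0, with a scale for each gene) of the 10 genes in each library (x axis; KD, knockdown; OE, overexpression); each bar is 1 library. Bax, Bad and Bbc3 show the same outline, with control replicate 1 and the overexpression control high and control replicate 2 lowest, while Bcl2l11 stands out in the KAI1 overexpression at 9.90 RPKM.

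Mcl1 (chromosome 3, 95462643 to 95467101 on mm9), whose short-lived protein is needed by many blood progenitors, had 35.5 and 29.6 RPKM in the KAI1 knockdown, against 64.0 and 43.6 RPKM in the knockdown controls. Both knockdown libraries lay below both controls, but the controls also differed 1.47-fold from each other. The means were 32.5 ± 4.16 and 53.8 ± 14.4 RPKM (SD, n = 2 each), a log2 difference of -0.69 (SE 0.30) that missed the threshold in limma (adjusted p = 0.830). In the other arm Mcl1 pointed the opposite way, with 41.0 RPKM in the KAI1 overexpression, against 25.3 RPKM in its control, 1.60-fold higher on the RPKM + 1 scale. Yet that control was the lowest of all libraries for Mcl1, below the knockdown too, and the overexpression lay below both knockdown controls. That arm compares single libraries without a test, and the difference between the arms was not tested.

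Bcl2l1 (chromosome 2, 152606404 to 152657418), which encodes the long survival form Bcl-xL and is needed by late red cell precursors, had 28.4 and 29.8 RPKM in the knockdown, against 32.8 and 16.3 RPKM in the controls. The knockdown pair lay between the controls, and the log2 difference was 0.32 (SE 0.39, limma's adjusted p = 0.865). Its highest level was 54.5 RPKM in the KAI1 overexpression, against 28.0 RPKM in its control, 1.92-fold higher on the RPKM + 1 scale. Bcl2 (chromosome 1, 108434756 to 108610867) had 4.33 and 4.66 RPKM in the knockdown, against 4.31 and 2.94 RPKM in the controls. The groups just failed to overlap, with 0.26 (SE 0.26) as the log2 difference and an adjusted p of 0.842 by limma, and under median-ratio scaling of the libraries and under a correction for GC content they did overlap. In the overexpression arm Bcl2 had 4.51 RPKM, against 2.21 RPKM in the control. All 3 anti-apoptotic genes thus exceeded this 1 control when KAI1 was overexpressed. For Bcl2, as for Mcl1, no library was lower than the overexpression control. The overexpression value of Bcl2 lay within the range of the knockdown arm, 2.94 to 4.66 RPKM. Of the 3 genes, only Bcl2l1 had its highest level in the overexpression. The Bcl2 entry pools 2 accessions, so its transcript forms cannot be told apart.

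Bax (chromosome 7, 52717065 to 52722268), a pore-forming effector and p53 target, had 30.3 and 45.8 RPKM in the knockdown, against 90.2 and 19.5 RPKM in the controls. The controls held both the highest and the lowest value of all 6 libraries, 4.62-fold apart, and the knockdown pair fell between them. The log2 difference of -0.18 (SE 0.79) was far inside that spread (limma's adjusted p = 0.963). The KAI1 overexpression had 49.8 RPKM of Bax, against 72.2 RPKM in its control. Bak1 (chromosome 17, 27154980 to 27173323), the other effector, was the steadiest of the 10 genes, with a 1.76-fold range. It had 41.6 and 47.0 RPKM in the knockdown, against 54.0 and 33.4 RPKM in the controls (log2 difference 0.05, SE 0.32, limma's adjusted p = 0.973), and 58.8 RPKM in the overexpression, against 42.3 RPKM in its control. The ratio of Bax to Bak1 RPKM was 0.730 and 0.974 in the knockdown, against 1.67 and 0.584 in the controls, and 0.848 in the overexpression, against 1.71 in its control. The deposited span of Bak1 is also that of Ggnbp1, as the span of Bad is that of Gpr137. No source used here gives the strandedness of the libraries, so reads where such genes overlap cannot be assigned with certainty.

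Pmaip1 (chromosome 18, 66618258 to 66625212), which encodes the Mcl1-binding protein Noxa, had 9.01 and 8.11 RPKM in the knockdown, against 3.73 and 5.19 RPKM in the controls. Both knockdown libraries lay above both controls. With means of 8.56 ± 0.638 and 4.46 ± 1.03 RPKM (SD, n = 2 each), its log2 difference of 0.82 (SE 0.25) was the largest of the 10 genes, and it missed the threshold in limma (adjusted p = 0.830, unadjusted p = 0.0270). The overexpression arm again pointed the other way, with 6.04 RPKM in the KAI1 overexpression, against 10.4 RPKM in its control. Yet that control was the highest of all libraries for Pmaip1, above the knockdown too, and the overexpression lay above both knockdown controls. Mcl1 RPKM divided by Pmaip1 RPKM was 3.94 and 3.65 in the knockdown, against 17.2 and 8.41 in the controls, and 6.80 in the overexpression, against 2.43 in its control. This ratio was computed after the values of both genes had been seen, and it is given with no test.

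Bcl2l11 (chromosome 2, 127951774 to 127988283), which encodes Bim, was level in 5 of the 6 libraries and high in 1. It had 4.21 and 4.13 RPKM in the knockdown, against 4.30 and 3.52 RPKM in the controls (log2 difference 0.08, SE 0.23, limma's adjusted p = 0.942). The KAI1 overexpression had 9.90 RPKM, against 3.48 RPKM in its control, 2.43-fold higher on the RPKM + 1 scale. On that scale Bcl2l11 was the 1 gene of the 10 past 2-fold in that arm. About 691 estimated reads stood behind its overexpression value and 321 behind its control value. On RPKM alone Bcl2 was also just past 2-fold, at 2.04-fold. The entry pools 3 accessions, so the splice forms of Bim cannot be told apart. Because Bcl2l1 was also high in that library, the ratio of Bcl2l1 to Bcl2l11 RPKM was 5.51 there, against 8.04 in its control, and lay between 4.63 and 7.62 in the knockdown arm.

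Bid (chromosome 6, 120843137 to 120866838), which links death receptors to mitochondria once caspase 8 has cut it, had 43.1 and 47.2 RPKM in the knockdown, against 85.6 and 37.3 RPKM in the controls. Control replicate 1 stood alone, since the other 5 libraries lay between 37.3 and 47.2 RPKM, and the log2 difference was -0.32 (SE 0.46, limma's adjusted p = 0.882). In the overexpression arm Bid had 43.4 RPKM, against 39.7 RPKM in the control. Bad (chromosome 19, 7012560 to 7026383), whose protein is switched off by phosphorylation under survival factors, had 36.2 and 47.2 RPKM in the knockdown, against 66.7 and 19.5 RPKM in the controls (log2 difference 0.18, SE 0.64, limma's adjusted p = 0.952). Its overexpression values were 49.9 RPKM, against 70.0 RPKM in the control. Bbc3 (chromosome 7, 16894932 to 16903683), which encodes the p53-induced protein Puma, had 5.01 and 5.36 RPKM in the knockdown, against 11.0 and 2.16 RPKM in the controls. The controls were 5.07-fold apart, the widest ratio of RPKM among the 10 genes, though on the log2(RPKM + 1) scale those of Bax were farther apart, and the log2 difference was 0.0076 (SE 0.68, limma's adjusted p = 0.998). In the overexpression arm it had 7.31 RPKM, against 10.7 RPKM in the control.

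Across the knockdown comparison limma called 0 of the 10 genes, beside 3 of all 10113 entries tested, or 0.0297%. At an unadjusted p below 0.05 stood 1 of the 10, Pmaip1, beside 3.32% of all entries. In 2 of the 10, Bcl2 and Pmaip1, the knockdown pair stood entirely above the control pair, and in 1, Mcl1, entirely below, while the same held for 21.5% and 17.0% of all entries, so these counts are near the background. The median log2 difference was 0.066 over the 10 genes and 0.028 over all entries. With 2 libraries a group, a missed threshold does not show that a gene was the same in both groups. Most directions depended on which control was used. Set against control replicate 2 alone, both knockdown libraries stood higher in 9 of the 10 genes and lower in the other, beside 42.0% and 36.0% of all entries (78.0% in either direction), with a median of 0.55 over the 10 and 0.031 over all. Against control replicate 1 alone, both stood higher in 2 of the 10 and lower in 8, beside 44.2% and 41.3% of all entries (85.6% in either direction), with a median of -0.48 over the 10 and 0.026 over all. Mcl1 stayed lower and Pmaip1 and Bcl2 stayed higher against either control, at -0.42 and -0.96 for Mcl1, 0.63 and 1.01 for Pmaip1, and 0.48 and 0.05 for Bcl2. That follows from their groups not overlapping and is no separate support. Each of these fits leaves 1 control library, whose spread is assumed to be that of the knockdown pair, so only the differences are given.

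**Figure D2:**
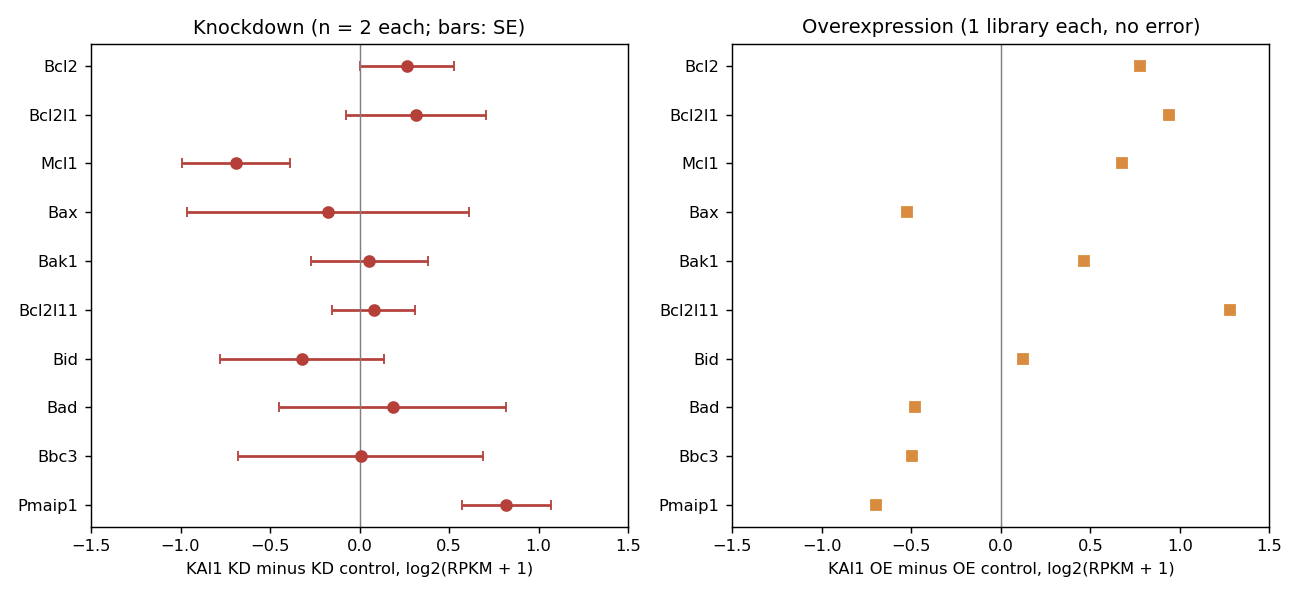
Difference of each gene on the log2(RPKM + 1) scale (x axis) in the knockdown arm (left; points are limma estimates, bars SE, n = 2 each) and in the overexpression arm (right; 1 library each, no error). Mcl1 lies left of 0 in the knockdown and right of 0 in the overexpression, and Pmaip1 the reverse. The overexpression control was itself the lowest of all libraries for Mcl1 and the highest for Pmaip1.

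**Figure D3:**
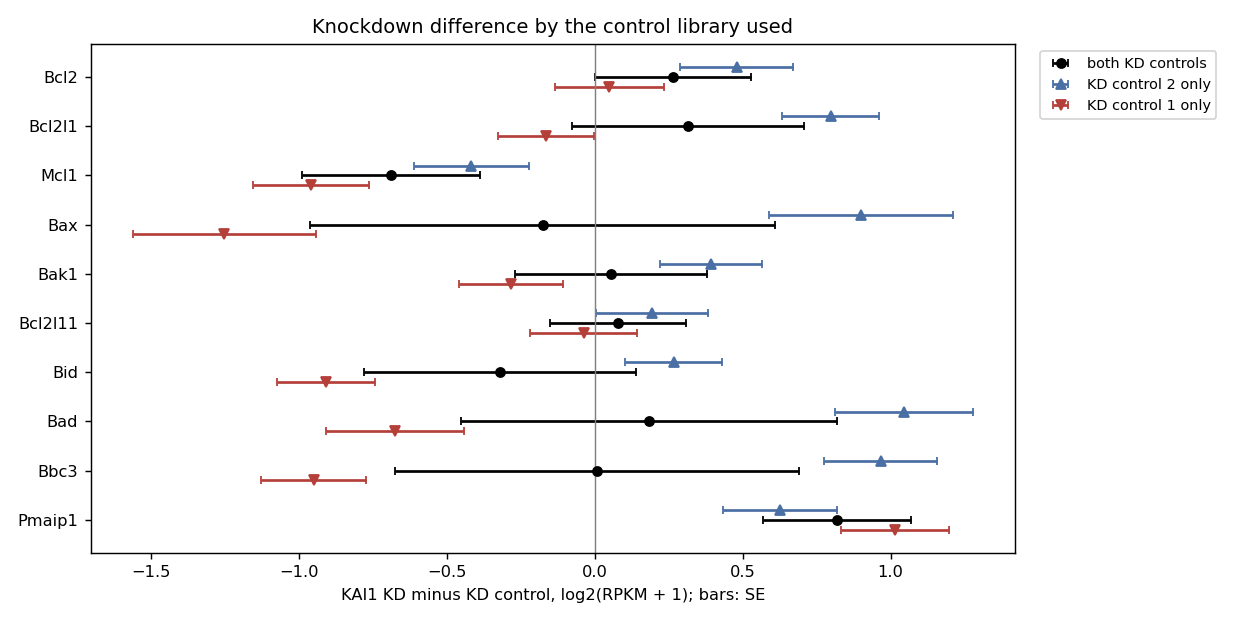
Knockdown difference on the log2(RPKM + 1) scale (x axis, bars SE from limma) against both controls, against control replicate 2 alone and against control replicate 1 alone. The estimates for Bcl2l1, Bcl2l11, Bax, Bak1, Bid, Bad and Bbc3 lie on opposite sides of 0 for the 2 controls. Those for Bcl2, Mcl1 and Pmaip1 stay on 1 side, as they must where the knockdown and control pairs do not overlap.

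On the RPKM + 1 scale, 1 of the 10 genes, Bcl2l11, was at least 2-fold higher in the overexpression arm and 0 were at least 2-fold lower. Of the 9936 entries compared, 4.92% and 5.21% passed those limits. Without a size limit, 6 of the 10 were higher and 4 lower, with a median log2 ratio of 0.29 over the 10 genes and 0.0057 over all entries. The 6 were all 3 anti-apoptotic genes with Bak1, Bcl2l11 and Bid, and the 4 were Bax with the BH3-only genes Bad, Bbc3 and Pmaip1. All 14 mast cell and basophil markers were higher and all 8 matched erythroid markers lower in the same library, and their part in these differences was not tested. Kit, the stem cell factor receptor, had 188.8 RPKM in the overexpression, against 107.4 RPKM in its control, and 134.5 and 109.7 RPKM in the knockdown, against 437.4 and 83.3 RPKM in the controls.

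Summed by role, the ratios to the anti-apoptotic genes were highest in the overexpression control and lowest in knockdown control replicate 2. The 3 anti-apoptotic genes summed to 68.1 and 64.1 RPKM in the knockdown, against 101.1 and 62.9 RPKM in the controls, and to 100.1 RPKM in the overexpression, against 55.5 RPKM in its control. The effectors Bax and Bak1 summed to 71.9 and 92.8 RPKM in the knockdown, against 144.3 and 52.9 RPKM in the controls, and to 108.6 RPKM in the overexpression, against 114.6 RPKM in its control. Effector RPKM divided by anti-apoptotic RPKM was therefore 1.06 and 1.45 in the knockdown, against 1.43 and 0.842 in the controls, so the groups overlapped. In the overexpression it was 1.08, against 2.06 in its control, the highest of the 6 libraries. The 5 BH3-only genes divided by the anti-apoptotic genes gave 1.43 and 1.75 in the knockdown, against 1.70 and 1.08 in the controls, and 1.16 in the overexpression, against 2.42 in its control. Transcript GC content was 59.17% and 57.06% for Bax and Bak1, against 45.32%, 56.35% and 48.68% for Bcl2, Bcl2l1 and Mcl1. Its part in these ratios was not tested.

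**Figure D4:**
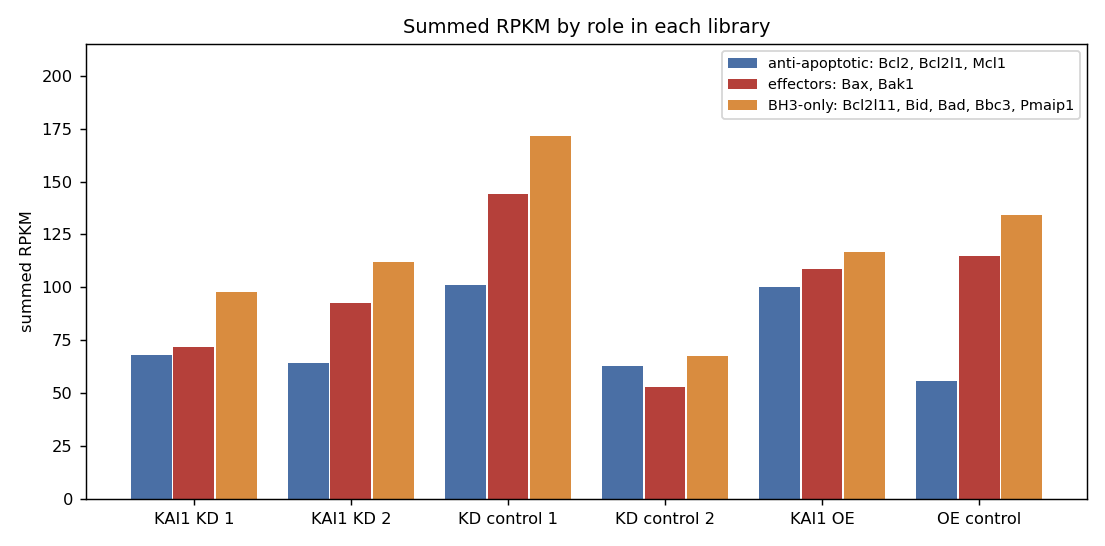
Summed RPKM (y axis, from 0) of the anti-apoptotic, effector and BH3-only genes in each library (x axis); each bar is 1 library. Anti-apoptotic RNA is highest in knockdown control replicate 1 and in the KAI1 overexpression, at 101.1 and 100.1 RPKM, and lowest in the overexpression control at 55.5 RPKM.

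Bax, Bad and Bbc3 had nearly the same profile, and on the log2(RPKM + 1) scale they had the widest ranges of the 10 genes over the 6 libraries, at 2.15, 1.79 and 1.92. Likeness was measured as the Euclidean distance between centred log2(RPKM + 1) profiles over the 6 libraries, among 9898 entries with a symbol that were not small RNAs. The entry nearest to Bbc3 was Bad, at a distance of 0.319, and Bax stood at rank 7 with 0.443. Vps37b and Rnasek came after Bad in the profile of Bbc3. Nearest to Bax were Pcbp4, Vps37b and Ubtd1, and Rbfa and Abhd8 were among the nearest to Bad, with distances between 0.233 and 0.423.

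The transcripts of Bbc3, Bad and Bax hold 65.2%, 61.3% and 59.2% G or C, and those of Pmaip1 and Bcl2, the lowest of the 10, 42.1% and 45.3%. The 7 entries named as near, Bad among them, ranged from 57.0% to 62.4%. Bak1 and Bcl2l1, at 57.1% and 56.3%, were also rich in GC but lay at distances of 1.38 and 1.47 from Bax, at ranks 985 and 1366. Control replicate 1 lay above control replicate 2 by a log2 difference of 2.15 for Bax, 1.92 for Bbc3 and 1.72 for Bad. With all tested entries split by GC content into 4 classes of equal size, the median of this difference was 0.39 in the highest class (55.1% to 70.0%) and -0.18 in the lowest. With each library's smooth dependence on GC content removed, a step added after the data were seen, the 3 differences were 1.71 for Bax, 1.16 for Bbc3 and 1.15 for Bad. The range over the 6 libraries was then still widest for Bax, at 1.71, while those of Bbc3 and Bad, at 1.16 and 1.15, were below those of Bcl2l1, Bcl2l11, Pmaip1, Mcl1 and Bid, which lay between 1.23 and 1.45. Only 0.355% of tested entries had a GC content at least that of Bbc3, so its correction leans on entries with less GC. Of the 14 mast cell and basophil markers, 13 also stood higher in the first of these controls than in the second, and their part in these differences was not tested.

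**Figure D5:**
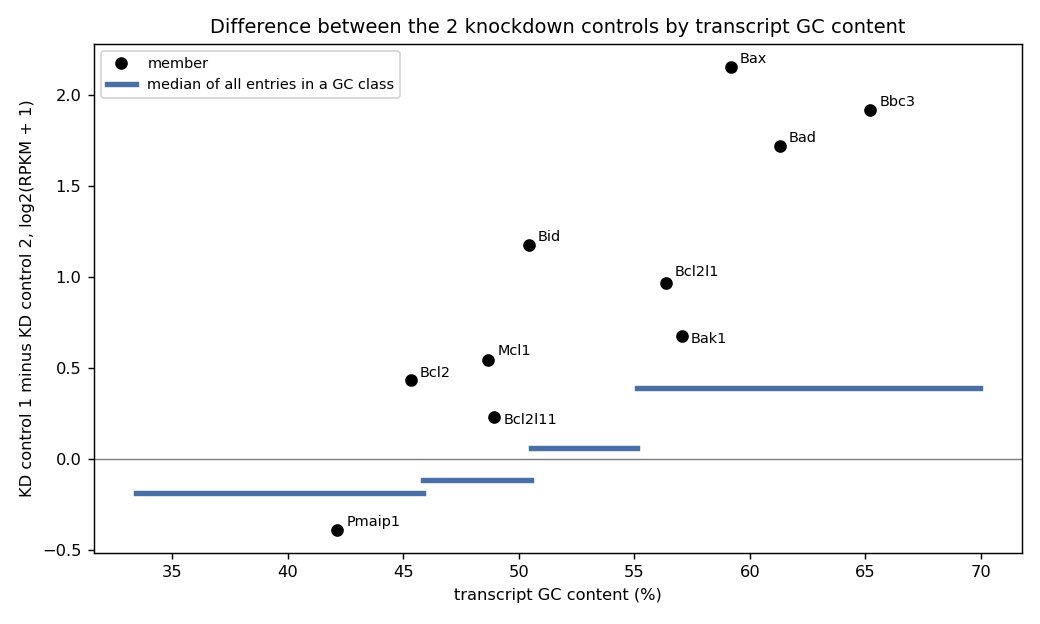
Log2 difference between knockdown control replicates 1 and 2 (y axis) against the GC content of the transcript (x axis, percent) for the 10 genes (points), with the median over all tested entries in each of 4 GC classes (horizontal bars). Bax, Bad and Bbc3 lie at the top right, from 1.72 to 2.15, above a median of 0.39 for the whole class from 55.1% to 70.0% GC.

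Upstream sequence is shown for Bax, the gene with the widest range on the log2(RPKM + 1) scale, for Mcl1, the gene that lay below both controls in the knockdown, and for Bcl2l11, the gene past 2-fold in the overexpression on the RPKM + 1 scale. Each line holds the 250 bases before the transcript start from RefSeq on GRCm38.p6, 5′ to 3′, at chr7:45466899-45467148 on the minus strand for Bax, chr3:95658471-95658720 on the plus strand for Mcl1 and chr2:128125788-128126037 on the plus strand for Bcl2l11. Bcl2l11 has 2 listed starts, and only the most upstream was used. Capitals mark matches on either strand to the GC box (GGGCGG), the E-box (CACGTG) and the FOXO motif (GTAAACA).
Bax: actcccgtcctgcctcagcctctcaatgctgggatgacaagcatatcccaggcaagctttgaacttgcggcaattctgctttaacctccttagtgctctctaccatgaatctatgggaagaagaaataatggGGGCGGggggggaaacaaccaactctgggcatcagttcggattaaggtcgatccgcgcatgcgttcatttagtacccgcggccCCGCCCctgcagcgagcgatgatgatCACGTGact
Mcl1: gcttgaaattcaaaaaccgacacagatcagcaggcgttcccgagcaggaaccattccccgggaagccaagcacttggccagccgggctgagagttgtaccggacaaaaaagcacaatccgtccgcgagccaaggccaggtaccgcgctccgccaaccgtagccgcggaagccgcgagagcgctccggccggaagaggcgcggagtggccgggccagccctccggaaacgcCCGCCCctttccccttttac
Bcl2l11: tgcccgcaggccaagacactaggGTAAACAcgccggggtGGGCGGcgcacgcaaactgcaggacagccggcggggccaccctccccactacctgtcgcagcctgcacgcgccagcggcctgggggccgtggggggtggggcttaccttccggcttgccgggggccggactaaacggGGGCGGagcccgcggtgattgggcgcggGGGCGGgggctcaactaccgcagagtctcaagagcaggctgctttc
The Bax window held 2 GC boxes and 1 E-box close to the start, the Mcl1 window 1 GC box, and the Bcl2l11 window 3 GC boxes and 1 FOXO motif. Of 32851 RefSeq windows of this length, 32.7% held a GC box, 6.02% the E-box and 3.17% the FOXO motif. Bim is known as a FOXO target in cells deprived of growth factor, and a match here is only a description of these letters. The GATA motif (GATAA), the STAT motif (TTCNNNGAA) and the CRE (TGACGTCA), found in 22.6%, 7.02% and 1.55% of all windows, had no match in these 3.

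Beyond the 10 genes, most other Bcl2 family genes were nearly silent. Of 16 further members, 10 stayed below 1 RPKM in every library, among them the BH3-only genes Bmf, Bik and Hrk, the effector-like Bok and the 4 Bcl2a1 genes. Of the 6 that could be tested in the knockdown, limma called 0, with 1 above both controls and 1 below. Over all entries tested, 0.0297% were called, 21.5% lay above both controls and 17.0% below. The mitophagy receptor gene Bnip3 had 29.7 and 84.9 RPKM in the knockdown, against 31.2 and 109.3 RPKM in the controls, and 27.6 RPKM in the overexpression, against 75.7 RPKM in its control. Bcl2l14 had 3.72 and 1.96 RPKM in the knockdown, against 0.0241 and 3.25 RPKM in the controls, and 0.0937 RPKM in the overexpression, against 3.40 RPKM in its control. These were the 2 of 6 that were at least 2-fold lower in the overexpression, and 0 of 6 were at least 2-fold higher. Over all entries compared, 5.21% were that much lower and 4.92% that much higher. Bcl2l12 had 7.86 and 7.69 RPKM in the knockdown, against 7.52 and 6.11 RPKM in the controls, and 6.56 RPKM in the overexpression, against 12.8 RPKM in its control.

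The machinery downstream of the pore was present throughout. All 18 genes of the apoptosome, caspases and their inhibitors were tested in the knockdown and 0 were called, with 3 above both controls and 4 below (median -0.0072). Over all entries tested, 0.0297% were called, 21.5% lay above both controls and 17.0% below, so these counts are near the background. The largest difference was that of Htra2, a protease released from mitochondria, at 61.1 and 68.2 RPKM in the knockdown, against 22.4 and 52.1 RPKM in the controls (log2 difference 0.89, SE 0.46, limma's adjusted p = 0.830). Endog, a mitochondrial nuclease, had 27.9 and 30.9 RPKM, against 13.9 and 17.4 RPKM in the controls (0.87, SE 0.24, adjusted p = 0.830), and in the other arm 23.7 RPKM in the overexpression, against 43.7 RPKM in its control. Dffb, the nuclease freed when caspases cut its inhibitor, had a knockdown difference of 0.52. None of the 18 was 2-fold apart in the overexpression arm, beside 4.92% of all entries compared at least 2-fold higher and 5.21% lower. Endog, the initiator gene Casp8 and the executioner gene Casp6 had the largest log2 ratios there, at -0.86, 0.73 and -0.56.

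Among 17 known upstream regulators of the family, limma called 0, with 2 above both controls and 4 below (median -0.13). Over all entries tested, 0.0297% were called, 21.5% lay above both controls and 17.0% below. In the overexpression 3 of the 17 were at least 2-fold higher and 0 lower, beside 4.92% and 5.21% of all entries compared. Pim1, a survival kinase gene induced by cytokines, had 7.59 and 12.4 RPKM in the knockdown, against 72.3 and 10.6 RPKM in the controls, and 34.5 RPKM in the overexpression, against 5.10 RPKM in its control. Trib3, a stress-induced pseudokinase gene, had 2.42 and 5.94 RPKM in the knockdown, against 32.2 and 8.30 RPKM in the controls, and 17.1 RPKM in the overexpression, against 3.62 RPKM in its control. Mitf, a mast cell transcription factor known to act on Bcl2 in melanocytes, had 3.22 and 4.61 RPKM in the knockdown, against 13.6 and 3.93 RPKM in the controls, and 9.38 RPKM in the overexpression, against 2.61 RPKM in its control. Ddit3, which encodes the stress factor CHOP, had 127.7 and 149.1 RPKM in the knockdown, against 449.4 and 144.5 RPKM in the controls. Control replicate 1 was the highest library for each of these 4 genes, as it was for the mast cell markers in sum.

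Of 13 genes for protein partners at the mitochondrion or in protein turnover, limma called 0, with 0 above both controls and 4 below (median -0.091). Over all entries tested, 0.0297% were called, 21.5% lay above both controls and 17.0% below. None of the 13 was 2-fold apart in the overexpression arm, beside 4.92% of all entries compared at least 2-fold higher and 5.21% lower. Fbxw7 and Usp9x, an adaptor for ubiquitin transfer and a deubiquitinase that both act on Mcl1 protein, were among the 4 below both controls. Fbxw7 had 4.44 and 4.45 RPKM in the knockdown, against 11.5 and 6.56 RPKM in the controls (log2 difference -0.84, SE 0.32, limma's adjusted p = 0.830). Usp9x had 2.75 and 2.86 RPKM, against 4.98 and 4.02 RPKM in the controls (-0.53, SE 0.24, adjusted p = 0.830). Ywhab, which encodes a 14-3-3 protein of the kind that holds phosphorylated Bad, had a difference of -0.52. In the overexpression arm Dynll2, Huwe1 and Dynll1 had the largest log2 ratios at -0.60, 0.57 and -0.54. Huwe1 encodes the ubiquitin ligase Mule that acts on Mcl1, and dynein light chain proteins of the Dynll genes bind Bim and Bmf.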

How the data were processed

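RNA was measured in 6 libraries of 4 groups. The authors deposited 1 table of RPKM per library, 23170 entries keyed by RefSeq accession and locus, per the file headers; 23146 remained after repeated entries were dropped. The submitters' processing notes name mm9, TopHat2 2.0.9, Bowtie and Cufflinks, and give no settings. Entry starts were moved by 1 base so that they count from 1. Names came from RefSeq on GRCm38.p6, and transcript length and GC content (98.8% of tested entries) from GENCODE M21. The 10 genes and all lists were chosen with earlier results of these data known. Of the wider lists, the genes named are the 3 largest differences in each arm and Kit, and of the profiles, the 3 nearest entries for the 3 widest-ranging members, of which 1 is not reported here.

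For the knockdown, limma (version 3.58.1, R 4.3.3) was fitted with a trend of variance on mean to log2(RPKM + 1) of entries that averaged 1 RPKM or more in the 4 libraries, two-sided, with Benjamini-Hochberg adjustment at 0.05. A fold change on that scale understates the change of low genes. The overexpression arm has no test. Relative depth was read from whole-number ratios of low values (15 of 15 library pairs matched within 0.5%), checked on simulated data, and absolute depth from transcript lengths, so read numbers are approximate. Other pseudocounts, filters, scalings, a replicate term, a GC correction and leaving out each library were tried.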

Additional observations from a re-analysis of the deposited data

How the results depend on the processing

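No setting tried, whether planned or added, brought a call for any of the 10 genes in the knockdown. Over all entries limma called 5 with a pseudocount of 0.1 and 0 with no filter on low values (683 at an unadjusted p below 0.05), against 3 as reported, and between 0 and 1045 when a library was left out. A group reduced to 1 library is assumed to vary like the other group. In these fits the members whose groups do not overlap numbered 3 to 10, with 10 when either control was left out, where 78.0% (without control replicate 1) and 85.6% (without control replicate 2) of all entries did not overlap either, and the median difference over the 10 genes ran from -0.48 to 0.55. Leaving out 1 library turned the direction of 7 genes, with ranges of -0.17 to 0.80 for Bcl2l1, -0.037 to 0.19 for Bcl2l11, -1.25 to 0.90 for Bax, -0.28 to 0.39 for Bak1, -0.91 to 0.27 for Bid, -0.68 to 1.04 for Bad and -0.95 to 0.97 for Bbc3. Bcl2 (0.049 to 0.48), Mcl1 (-0.96 to -0.42) and Pmaip1 (0.63 to 1.01) kept their direction in these fits. Their groups did not overlap with all 4 libraries, so leaving out 1 library could not turn their direction. The GC correction, chosen after seeing the data, gave -0.068 for Bak1 and -0.18 for Bbc3, and median-ratio scaling gave -0.024 for Bbc3, all opposite to the reported sign and all close to 0 relative to their SE; the cause was not tested. In the overexpression arm the 1 gene past 2-fold stayed at 1 under each of the 4 alternatives tried. With the pseudocount of 0.1, Bcl2 came just short of 2-fold, at a log2 ratio of 0.995. Deviations of same-numbered libraries were nearly uncorrelated across entries (r = -0.075). With 2 libraries a group, this cannot show whether same-numbered libraries were handled together. A fit with the replicate block called 4 entries, 0 of them members, with a median over the 10 genes of 0.066. The filter at 5 RPKM left out Bcl2 and Bcl2l11, so it gave no value for them. The estimated depth was lowest, at 9570000 reads, in control replicate 2, and its part in the differences was not tested.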
